A study of Mus musculus with 2 samples.

Results

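The 9 genes described here are the survival and death genes of the Bcl2 family that were followed through 2 single cell libraries of the embryonic mouse telencephalon: *Bcl2*, *Bcl2l1*, *Mcl1*, *Bax*, *Bak1*, *Bbc3*, *Pmaip1*, *Bcl2l11* and *Hrk*. They were taken by symbol and not by their values. Each had 1 row in both libraries, so that they are 9 of the 28001 rows of the septal explants library and 9 of the 32286 rows of the telencephalic vesicle library. The septal explants came from C57BL/6J embryos that all carried a Cre and a Cre-dependent reporter, namely 8 *PGKCre;Rosa26YFP* embryos at E11.5 and 4 *Dbx1Cre;Rosa26tdTomato* embryos at E12.5, each set from 2 litters, whose cells were pooled into 1 library. *PGK* drives Cre broadly and *Dbx1* drives it in the septum and ventral pallium (VP). The telencephalic vesicle came from 3 WT embryos, labelled E12 and given as E11.5 to E12 in the study's methods, also of 2 litters and pooled into 1 library. Each condition thus had 1 library, single embryos cannot be told apart within it, and no test across samples was possible.

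The Bcl2 family sets whether the outer membrane of the mitochondrion stays closed. Guardians (Bcl2, Bcl-xL from *Bcl2l1*, and Mcl1) hold the effectors Bax and Bak in check, and effectors that escape them open the membrane, which releases cytochrome c and switches on caspases through Apaf1. BH3-only proteins such as Puma (*Bbc3*), Noxa (*Pmaip1*), Bim (*Bcl2l11*) and Hrk occupy the guardians or activate the effectors, and they are known as the part of the family that is switched on by stress. *Bbc3* and *Pmaip1* are known targets of p53, whereas *Bcl2l11* and *Hrk* are known to answer to Foxo factors, Jun and loss of trophic support. In the telencephalon, apical progenitors (APs) give rise to basal progenitors (BPs) and neurons. Most Cajal-Retzius (CR) cells, early born neurons made at the hem, the septum and the VP, are known to die after birth.

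What holds the family together is the BH3 core, the stretch through which a BH3-only protein or an effector docks into the groove of a guardian. It was searched in the coding sequence of 1 transcript per gene, on the coding strand and in frame, as a leucine codon, 9 bases of any kind, a glycine or alanine codon and an aspartate codon, which makes 18 bases. The 8 stretches printed here show how far the members share it, and each held exactly 1 match. They are written 5′ to 3′ along the gene, with the 18 bases of the core in capitals and 6 bases on each side, from the mm10 (GRCm38) transcripts of GENCODE vM21.
Bcl2 (chr1:106712578-106712607, minus strand, coding exon 1 of 2): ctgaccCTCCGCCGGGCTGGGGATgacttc
Bcl2l1 (chr2:152829700-152829729, minus strand, exon 2 of 3): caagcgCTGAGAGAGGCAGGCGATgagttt
Mcl1 (chr3:95659430-95659459, plus strand, exon 1 of 3): gagaccCTGCGGCGCGTGGGCGACggcgtg
Bax (chr7:45466000-45466029, minus strand, exon 3 of 6): gagtgtCTCCGGCGAATTGGAGATgaactg
Bak1 (chr17:27022534-27022563, minus strand, exon 4 of 6): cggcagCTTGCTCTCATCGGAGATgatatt
Bbc3 (chr7:16313767-16313796, plus strand, exon 3 of 4): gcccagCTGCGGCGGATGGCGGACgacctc
Bcl2l11 (chr2:128147144-128147173, plus strand, exon 3 of 4): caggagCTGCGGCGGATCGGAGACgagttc
Hrk (chr5:118169885-118169914, plus strand, exon 1 of 2): ctgcggCTGCAGGCGCTGGGCGACgagctg
Of the 18 core bases, 5 were the same in all 8 genes, which largely restates the search, since the codons asked for fix most of these. The closest pair was *Bbc3* and *Bcl2l11*, both BH3-only, with 15 of 18 bases in common, and the most distant pairs, *Bcl2l1* with *Bak1* and *Bak1* with *Hrk*, shared 7. The core is short and loose, since 23.8% of 21767 protein-coding genes held at least 1 match, so a match alone does not mark a member of the family. No stretch of *Pmaip1* is shown.

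Of the septal explants, 5367 cells with a median of 12857 UMIs (unique molecular identifiers, the count of transcript molecules) were kept of 5827 barcodes. Of the telencephalic vesicle, 11587 cells with a median of 8986 UMIs were kept of 14283 barcodes. Clusters were named only from marker genes and are called "-like" for that reason, and the 9 genes took no part in the clustering. The septal explants held 739 septal-like, 1055 subpallial-like, 300 pallial-like and 136 hem-like APs, 1240 APs without a regional name, 530 BP-like cells, 260 differentiating subpallial cells, and 4 neuron classes of 210 CR-like, 166 GABAergic-like, 477 pallial glutamatergic-like and 184 septal glutamatergic-like cells. The explants therefore reached well beyond septum. The same names were given in the telencephalic vesicle to 931 septal-like, 2760 subpallial-like, 931 pallial-like, 868 hem-like and 508 VP-like APs and to 409 CR-like, 709 GABAergic-like and 576 pallial glutamatergic-like neurons, besides 245 choroid plexus-like, 488 mesenchyme-like, 72 macrophage-like and 22 endothelium-like cells, and 985 cells of 3 shallow clusters stayed unnamed. Levels are CPM, the share of a gene among the UMIs of all genes summed over the cells of a class, on the usual CPM scale, with an exact Poisson 95% interval, and the intervals cover counting error only, not differences between embryos. In the septal explants the reporters tell the embryo sets apart in part. An *eYFP* UMI was found in 69.8% of kept cells and a *dtTomato* UMI in 7.45%, and a cell without either cannot be assigned to an age. *eYFP* was found in 66.9% to 76.7% of cells in the neuron classes and in 69.4% to 86.0% in the AP classes, except for pallial-like APs at 24.0% (19.3 to 29.2%), so that classes may differ in their mix of embryo sets and ages. Both reporters were found in 2.03% of cells, so a single reporter UMI does not assign a cell. All 26 erythroid-like cells, at a median of 29045.5 UMIs, had an *eYFP* UMI, and whether it was their own was not tested. The libraries differ in kit, age, dissection and counting software, so each was read on its own, and CPM of different genes were not compared. Every member had UMIs in both libraries, from 48 in kept cells for *Hrk* in the septal explants to 31430 for *Bax* in the telencephalic vesicle. *Bcl2* and *Bax* overlap other annotated genes on the same strand, and *Bcl2* and *Bak1* overlap genes on the opposite strand. What these overlaps did to the counts was not tested.

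Among the guardians, *Bcl2* was highest in regional progenitor classes of the neural cells. In the septal explants it stood at 41.6 CPM (37.7 to 45.8) in septal-like APs, 33.8 CPM (31.0 to 36.7) in subpallial-like APs, 30.3 CPM (23.4 to 38.6) in hem-like APs and 29.2 CPM (24.6 to 34.4) in pallial-like APs. The levels of the neurons were 18.8 CPM (15.5 to 22.6) in the pallial glutamatergic-like, 16.3 CPM (11.46 to 22.4) in the septal glutamatergic-like, 9.55 CPM (5.66 to 15.1) in the GABAergic-like and 6.91 CPM (4.02 to 11.1) in the CR-like class. Every regional AP class thus lay above every neuron class, whereas the APs without a regional name, at 14.7 CPM (13.1 to 16.5), lay among the neurons. *Bcl2* in the telencephalic vesicle stood at 44.0 CPM (41.3 to 46.9) in septal-like, 42.3 CPM (40.4 to 44.3) in subpallial-like and 40.8 CPM (38.0 to 43.7) in hem-like APs, against 23.4 CPM (20.7 to 26.4) in VP-like and 18.2 CPM (16.6 to 19.9) in pallial-like APs and 16.3 CPM (12.7 to 20.7) in APs without a regional name. The 3 neuron classes of that library spanned only 13.1 to 14.0 CPM, and their intervals overlapped each other and that of the APs without a regional name. The highest level of all was in the 22 endothelium-like cells, at 115 CPM (92.2 to 142), and erythroid-like cells were near the floor at 1.74 CPM (0.566 to 4.07). A ratio of CPM is called here when it reaches 1.5-fold in either direction, its exact 95% interval leaves out 1 and the cells compared hold at least 50 UMIs. Over all neurons against all APs, *Bcl2* was called lower in both libraries, at a ratio of 0.535 (0.457 to 0.624) in the septal explants and at 0.393 (0.336 to 0.456) in the telencephalic vesicle.

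*Bcl2l1*, whose product Bcl-xL is the guardian known to keep young neurons alive, ran the opposite way. In the septal explants CR-like cells had 143 CPM (129 to 159), septal glutamatergic-like cells 129 CPM (115 to 145), pallial glutamatergic-like cells 128 CPM (119 to 137) and GABAergic-like cells 108 CPM (93.9 to 124). BP-like cells stood between neurons and APs at 85.7 CPM (78.7 to 93.2), and the AP classes ranged from 36.3 CPM in pallial-like to 54.1 CPM in septal-like cells. The CR-like and both glutamatergic-like intervals overlapped, so that no order can be read among those classes. The neuron classes of the telencephalic vesicle had 94.0 CPM (83.9 to 105) in CR-like, 82.7 CPM (74.6 to 91.6) in pallial glutamatergic-like and 71.6 CPM (64.5 to 79.3) in GABAergic-like cells, BP-like cells had 57.3 CPM (51.2 to 64.0), and the AP classes ranged from 32.2 to 54.3 CPM. The ratio of neurons to APs was 3.01 (2.83 to 3.21) in the septal explants and was 1.99 (1.86 to 2.12) in the telencephalic vesicle, both called higher. *Bcl2l1* is also a known survival gene of red cell precursors, and erythroid-like cells held 75.4 CPM (56.8 to 98.2) in the septal explants but 35.2 CPM (28.7 to 42.8) in the telencephalic vesicle, within the range of its AP classes.

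*Mcl1*, a guardian whose protein turns over quickly, was higher in neurons by a smaller ratio. Its levels in the septal explants were 78.5 CPM (66.4 to 92.2) in GABAergic-like, 76.6 CPM (65.6 to 88.8) in septal glutamatergic-like, 67.1 CPM (60.8 to 74.0) in pallial glutamatergic-like and 65.0 CPM (55.3 to 75.9) in CR-like cells, and all 4 intervals overlapped. BP-like cells were at 60.0 CPM (54.2 to 66.3), and AP classes lay between 35.7 and 44.6 CPM. GABAergic-like cells of the telencephalic vesicle had 143 CPM (133 to 153), BP-like cells 138 CPM (128 to 148), CR-like cells 132 CPM (119.6 to 145) and pallial glutamatergic-like cells 128 CPM (118 to 139), against 77.8 to 96.2 CPM over the AP classes. Outside the neural classes, endothelium-like cells at 179.6 CPM (150.4 to 213) and macrophage-like cells at 171 CPM (149 to 195) were the highest. Neurons were called higher than APs at 1.78 (1.64 to 1.92) in the septal explants. The telencephalic vesicle ratio of 1.51 (1.44 to 1.59) lay at the threshold, and its call was lost in 6 of 10 alternative settings and when any of 4 of its 20 clusters was left out, down to 1.43 (1.36 to 1.52) without the GABAergic-like cluster led by *Dlx6os1*.

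**Figure D1:**
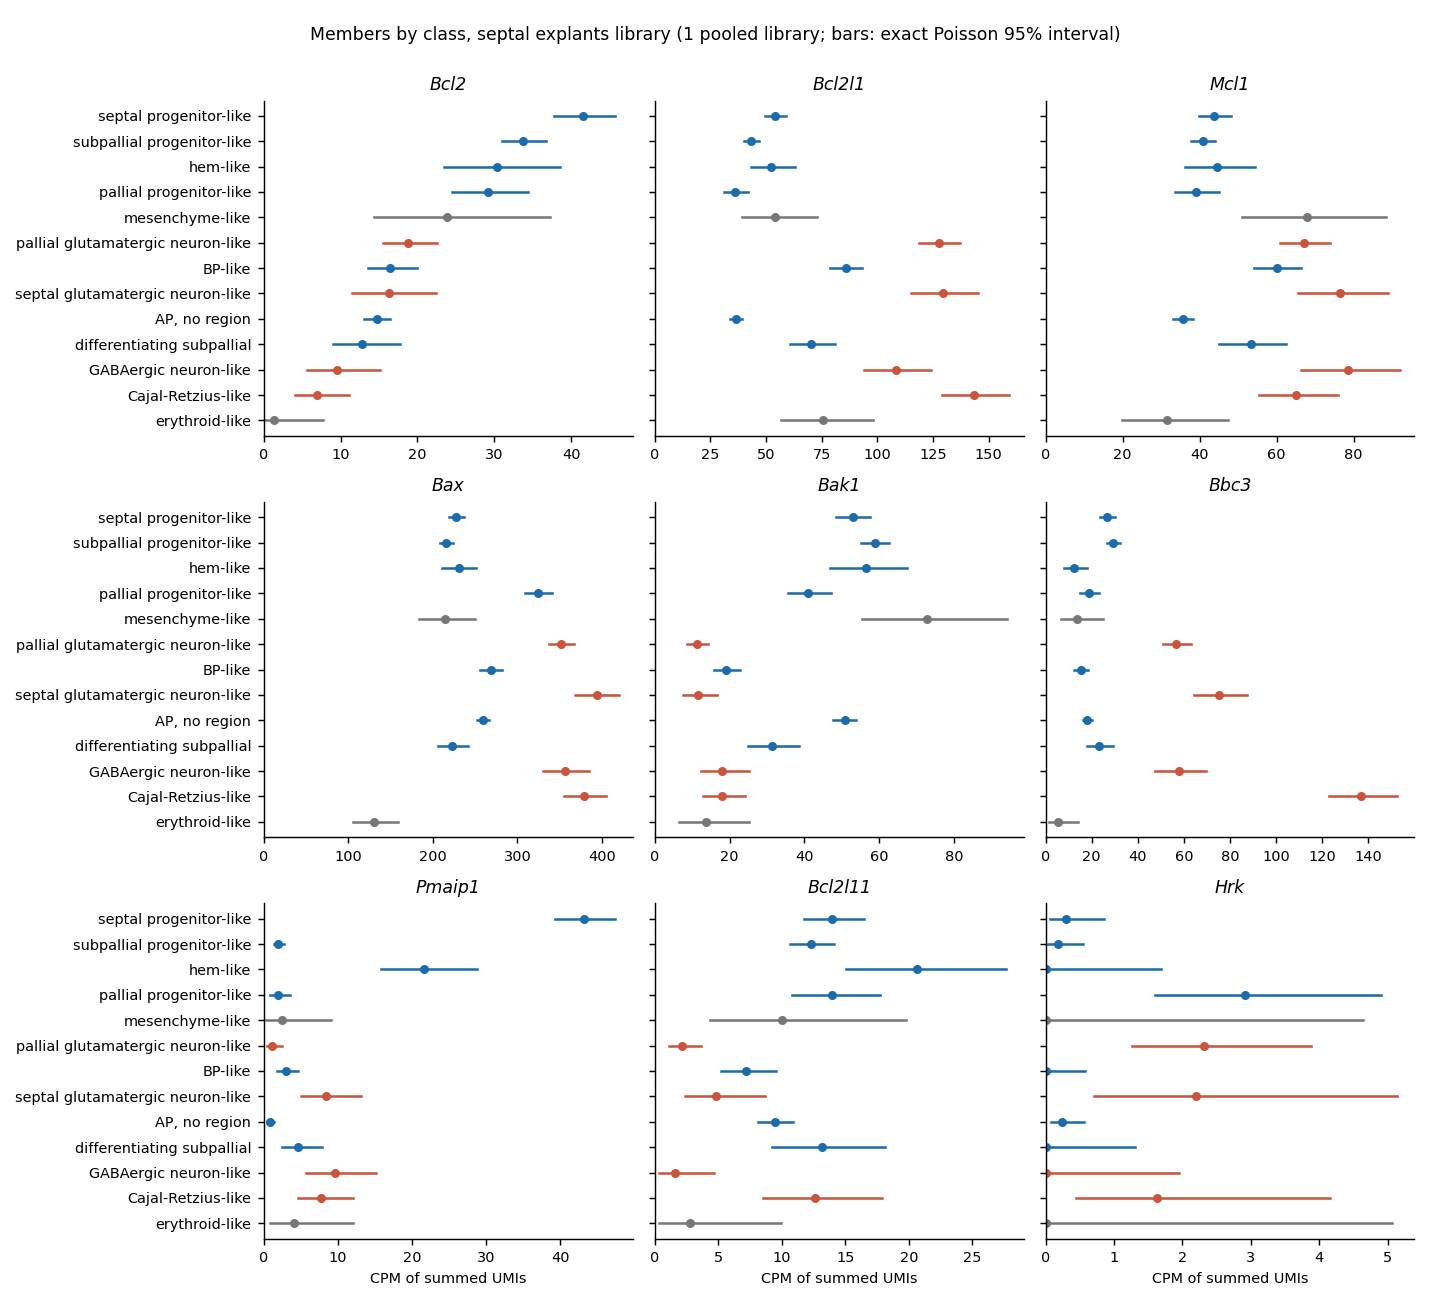
Levels of the 9 genes in the classes of the septal explants library, as CPM of summed UMIs (x axis, linear, a scale for each gene), with points for classes and bars for exact Poisson 95% intervals. *Bcl2* was high in regional AP classes but not in APs without a regional name, and *Bak1* was high in all AP classes (blue). *Bcl2l1* and *Bbc3* were high in neuron classes (red), and *Pmaip1* stood out in septal-like APs at 43.2 CPM.

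The effectors split. *Bax*, which needs to be moved to the mitochondrion before it acts, was the most widely found member, with a UMI in 94.7% of kept cells of the septal explants and in 78.2% of the telencephalic vesicle. It had a UMI in 96.2% (92.6 to 98.3%) of CR-like cells and 93.1% (91.0 to 94.8%) of septal-like APs of the septal explants. Its levels there were 394 CPM (369 to 421) in septal glutamatergic-like, 379.5 CPM (356 to 405) in CR-like, 357 CPM (330.5 to 385) in GABAergic-like and 352 CPM (337 to 367) in pallial glutamatergic-like neurons. Pallial-like APs, at 325 CPM (309 to 342), came close to the neurons, while septal-like APs at 228 CPM (219 to 237) and subpallial-like APs at 216 CPM (209 to 223) lay lower. Neuron classes of the telencephalic vesicle spanned 242 to 263 CPM and the named AP classes 164 to 199 CPM, again with pallial-like above septal-like cells. Neurons stood above APs at ratios of 1.49 (1.44 to 1.54) in the septal explants and of 1.39 (1.34 to 1.44) in the telencephalic vesicle, narrow intervals that both fell short of 1.5-fold. For the septal explants the ratio passed 1.5 when any of 5 of the 22 clusters was left out, up to 1.54 (1.49 to 1.59) without the pallial-like cluster.

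*Bak1*, the effector that sits in the mitochondrial membrane throughout, was the most progenitor-biased member in ratio. The AP classes of the septal explants had 58.8 CPM (55.1 to 62.7) in subpallial-like, 56.5 CPM (47.0 to 67.4) in hem-like, 52.9 CPM (48.5 to 57.6) in septal-like, 50.7 CPM (47.7 to 53.9) in those without a regional name and 41.1 CPM (35.5 to 47.2) in pallial-like cells. Differentiating subpallial cells lay between at 31.2 CPM (25.1 to 38.5). BP-like cells, at 19.1 CPM (15.9 to 22.8), were already in the range of neurons, which had 18.03 CPM (12.49 to 25.2) in the GABAergic-like, 17.9 CPM (13.0 to 24.0) in the CR-like, 11.4 CPM (7.47 to 16.8) in the septal glutamatergic-like and 11.2 CPM (8.71 to 14.2) in the pallial glutamatergic-like class. AP classes of the telencephalic vesicle lay between 17.6 and 23.2 CPM, BP-like cells at 7.26 CPM (5.19 to 9.88) and neurons at 3.77 to 7.16 CPM, while macrophage-like cells had the highest level, 42.3 CPM (31.9 to 55.0). The neuron to AP ratio was 0.256 (0.218 to 0.299) and 0.297 (0.232 to 0.375), called lower in both libraries and in all 10 alternative settings of each.

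**Figure D2:**
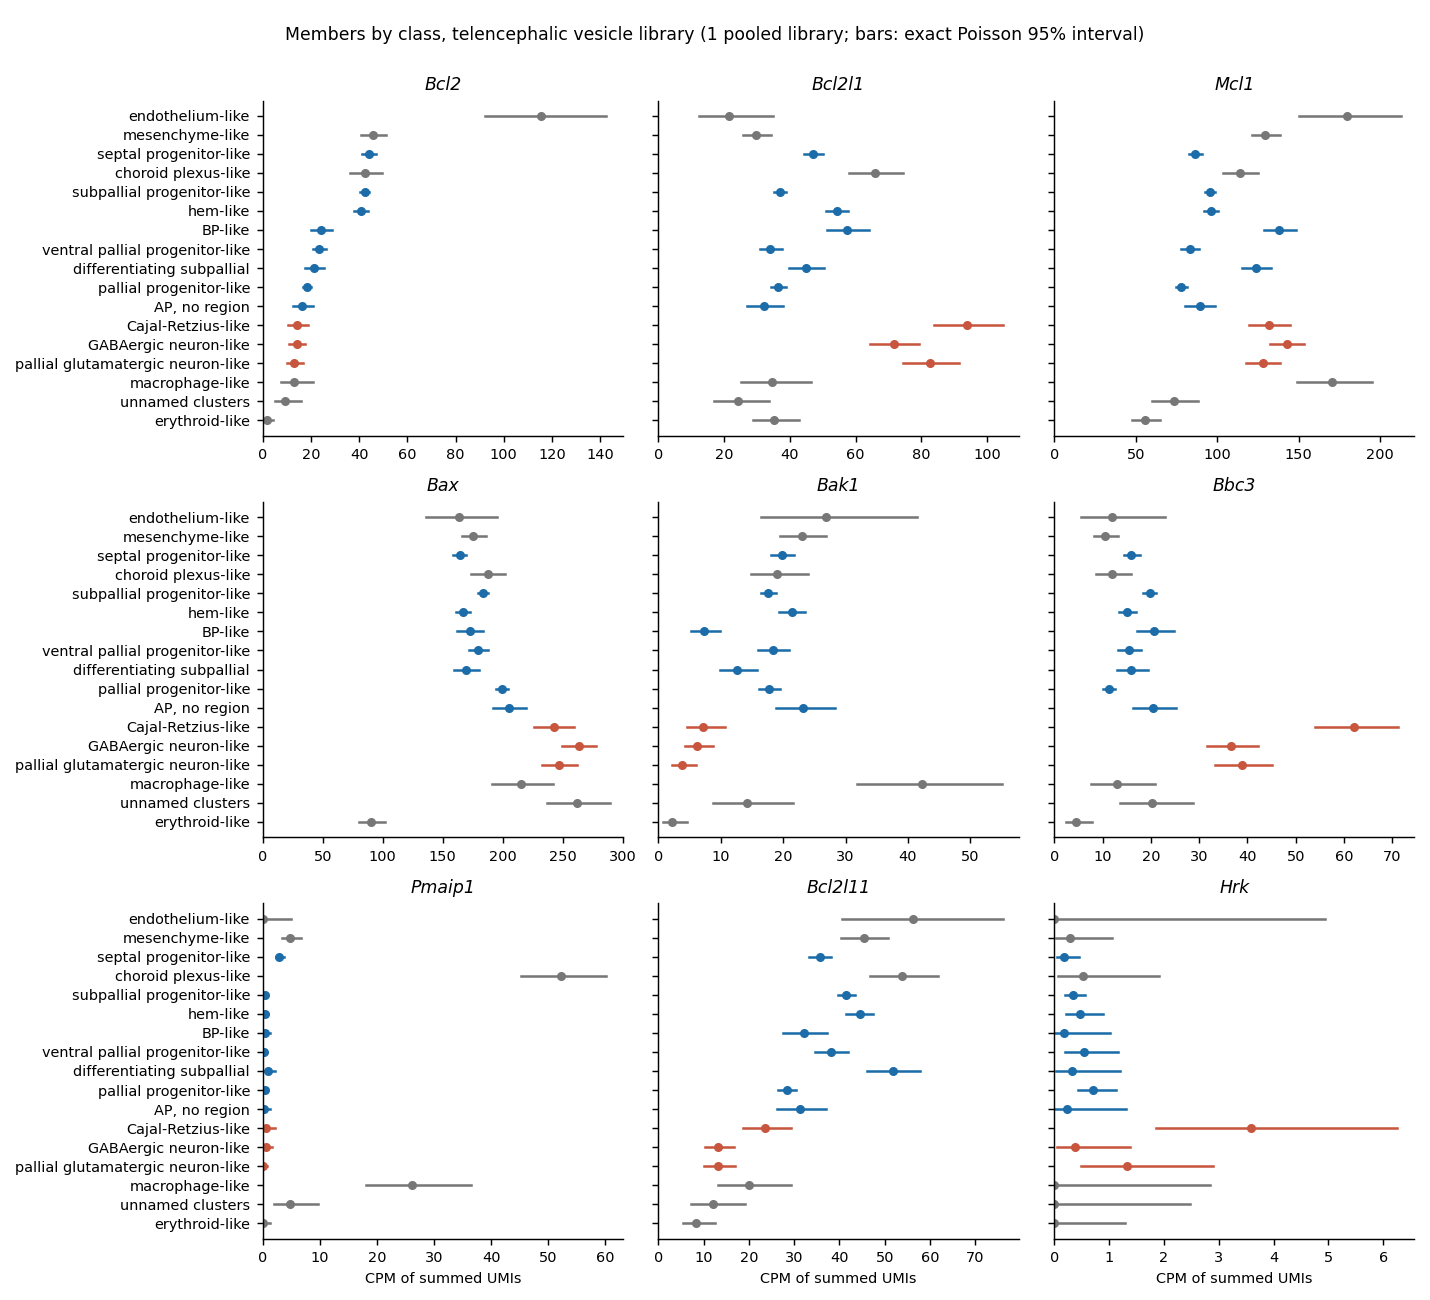
Levels of the 9 genes in the classes of the telencephalic vesicle library, drawn as for the septal explants (CPM of summed UMIs, exact Poisson 95% intervals, AP, BP and differentiating classes in blue, neurons in red, other classes in grey). *Pmaip1* was highest in choroid plexus-like cells at 52.3 CPM, *Bcl2* in endothelium-like cells, and *Bbc3* in CR-like cells at 62.1 CPM.

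Of the BH3-only genes, *Bbc3* (Puma) was a neuron gene with its highest class level in CR-like cells. That level came mainly from the CR-like cluster led by *Lhx1*, among others, in both libraries, as described further on. CR-like cells of the septal explants had 137 CPM (123 to 152), with a UMI in 68.1% (61.3 to 74.3%) of cells, followed by 75.3 CPM (64.4 to 87.4) in septal glutamatergic-like, 57.8 CPM (47.5 to 69.7) in GABAergic-like and 56.8 CPM (50.9 to 63.1) in pallial glutamatergic-like cells. No other class overlapped the CR-like interval. AP classes ranged from 12.4 CPM in hem-like to 29.4 CPM in subpallial-like cells, and BP-like cells, at 15.2 CPM (12.4 to 18.6), were no higher than APs. The telencephalic vesicle gave 62.1 CPM (53.9 to 71.1) in CR-like, 38.8 CPM (33.3 to 45.0) in pallial glutamatergic-like and 36.7 CPM (31.7 to 42.3) in GABAergic-like cells, again with CR-like cells above the others, against 11.3 to 20.3 CPM over AP classes. Erythroid-like cells, which served as a gauge of free RNA, had a *Bbc3* UMI in 3.26% (1.75 to 5.51%) of cells at a median of 5425 UMIs, and CR-like cells in 35.7% (31.0 to 40.6%) at 6971. The neuron to AP ratio was 3.30 (3.03 to 3.59) in the septal explants and was 2.70 (2.46 to 2.97) in the telencephalic vesicle.

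*Pmaip1* (Noxa) had a few strong sources. Septal-like APs of the septal explants had 43.2 CPM (39.2 to 47.4), hem-like APs 21.6 CPM (15.9 to 28.7), and no other class exceeded 9.55 CPM, with APs of no regional name at 0.827 CPM (0.482 to 1.32). Most of the UMIs lay in 1 septal-like cluster led by *Fgf8*, *Bcam* and *Igfbp5*, with *Fgf18* and *Fgf17* also among its leading genes. Its 275 cells held 384 of the 643 *Pmaip1* UMIs of kept cells, at 121 CPM (109 to 134) and with a UMI in 36.4% of cells, while the other 2 septal-like clusters had 8.36 CPM (5.89 to 11.53) and 6.99 CPM (4.14 to 11.04). The gene ranked among the leading genes of that cluster although it was not used to form it. The septal-like cluster of the telencephalic vesicle led by *Fgf17* and *Fgf8* had 6.98 CPM (5.30 to 9.02), which exceeded every other AP cluster, none of which passed 0.650 CPM. The levels there were low, and the highest of that library were 52.3 CPM (45.3 to 60.1) in choroid plexus-like cells, led by *Ttr*, and 26.1 CPM (18.1 to 36.5) in macrophage-like cells. Erythroid-like cells of that library had no *Pmaip1* UMI in 399 cells, at 0 CPM (0 to 1.29), and pallial glutamatergic-like neurons none in 576 cells, at 0 CPM (0 to 0.818).

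Because 1 cluster held most of its UMIs, the *Pmaip1* ratios depended on it. Neurons were called lower than APs in the septal explants, at 0.492 (0.373 to 0.640), and called higher, at 1.58 (1.16 to 2.13), without the *Fgf8*-led cluster. In the septal glutamatergic-like class, 19 UMIs came from 3 of 184 cells. The telencephalic vesicle had 5 UMIs in neurons and 110 in APs, a ratio of 0.445 (0.142 to 1.07) that was not called, while 6 of 10 alternative settings called it lower, with ratios down to 0.147.

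*Bcl2l11* (Bim) was mainly a progenitor gene, and among neurons it was highest in the CR-like class. Within that class it was highest in the cluster led by *Ccno*, which also held BP markers, as described further on. Hem-like APs of the septal explants had 20.7 CPM (15.1 to 27.7), pallial-like 14.0 CPM (10.8 to 17.7), septal-like 14.0 CPM (11.8 to 16.5) and subpallial-like APs 12.3 CPM (10.6 to 14.1). CR-like cells, at 12.6 CPM (8.56 to 17.9), lay within that range. The other neuron classes had 4.84 CPM (2.42 to 8.66) in the septal glutamatergic-like, 2.14 CPM (1.14 to 3.67) in the pallial glutamatergic-like and 1.59 CPM (0.328 to 4.65) in the GABAergic-like class. In the telencephalic vesicle, endothelium-like cells had 56.3 CPM (40.6 to 76.1), choroid plexus-like cells 53.9 CPM (46.7 to 61.8), differentiating subpallial cells 51.8 CPM (46.2 to 57.8), hem-like APs 44.4 CPM (41.5 to 47.5) and pallial-like APs 28.4 CPM (26.4 to 30.5). CR-like cells had 23.6 CPM (18.7 to 29.4) and lay above GABAergic-like cells at 13.2 CPM (10.3 to 16.8) and pallial glutamatergic-like cells at 13.1 CPM (9.96 to 16.9). The neuron to AP ratio was 0.381 (0.286 to 0.499) in the septal explants and was 0.422 (0.365 to 0.485) in the telencephalic vesicle, called lower in both.

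*Hrk*, a BH3-only gene known from neurons deprived of growth factor, was close to absent, with 48 kept UMIs in the septal explants library and 81 in that of the telencephalic vesicle. In the septal explants 14 UMIs fell in pallial-like APs, at 2.92 CPM (1.60 to 4.90), and 14 in pallial glutamatergic-like neurons, 13 of which belonged to the 96 cells of a cluster led by *Pcp4*, *Neurod6* and *Neurod2*. That cluster, at 9.89 CPM (5.26 to 16.9), also had the highest *Bcl2* of the neuron clusters, 36.5 CPM (26.9 to 48.4). CR-like cells of the telencephalic vesicle had 12 UMIs and the highest level, 3.58 CPM (1.85 to 6.26), with a UMI in 2.69% (1.35 to 4.76%) of cells. Neurons were called higher than APs in the telencephalic vesicle, at 3.63 (2.06 to 6.16) on 20 and 54 UMIs. Of these 20 UMIs, 12 were those of CR-like cells, and no ratio was taken without the whole CR-like class. The septal explants had 23 and 25 UMIs, too few for a call, at 3.90 (2.12 to 7.17). The telencephalic vesicle call held in 9 of 10 alternative settings and was lost in thinned cells. Erythroid-like cells had no *Hrk* UMI in either library.

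Across the 9 genes, neurons against APs gave 3 higher (*Bcl2l1*, *Mcl1*, *Bbc3*) and 4 lower (*Bcl2*, *Bak1*, *Pmaip1*, *Bcl2l11*) of 8 with enough UMIs in the septal explants. Of all genes there, 28.1% were called higher and 24.4% lower. In the telencephalic vesicle 4 of 9 were higher (*Hrk* in addition) and 3 lower (*Bcl2*, *Bak1*, *Bcl2l11*), against 24.7% and 27.9% of all genes. So large a share of all genes differed between these stages that the counts are read gene by gene. The median log2 ratio of the members was -0.16 in the septal explants and was 0.48 in the telencephalic vesicle, beside 0.057 and -0.08 over all genes tested. In both libraries, neurons had more *Bcl2l1*, *Mcl1* and *Bbc3* and less *Bcl2*, *Bak1* and *Bcl2l11* than all APs together, so that members of the guardian and the BH3-only kind were found on either side. For *Bcl2* the difference varied with the AP class. APs without a regional name lay among the neuron classes of the septal explants. In the telencephalic vesicle they overlapped the neurons, and pallial-like APs stood well below septal-like, subpallial-like and hem-like APs. Neurons were shallower, with class medians of 10655 to 11972 UMIs against 12010 to 15670 in the AP classes of the septal explants and of 6563 to 6982 against 8542 to 13043 in the telencephalic vesicle. With each cell thinned to 8000 or 3500 UMIs, these 6 genes kept their calls in both libraries, whereas the *Hrk* call of the telencephalic vesicle was lost. Within the septal explants cells that had an *eYFP* UMI all 6 kept their calls as well, and *Bax* was called higher, at 1.52 (1.46 to 1.58). In cells without one, *Bcl2* at 0.720 (0.557 to 0.920) and *Pmaip1* at 0.774 (0.506 to 1.15) were not called, and the other 5 of the 6 were.

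**Figure D3:**
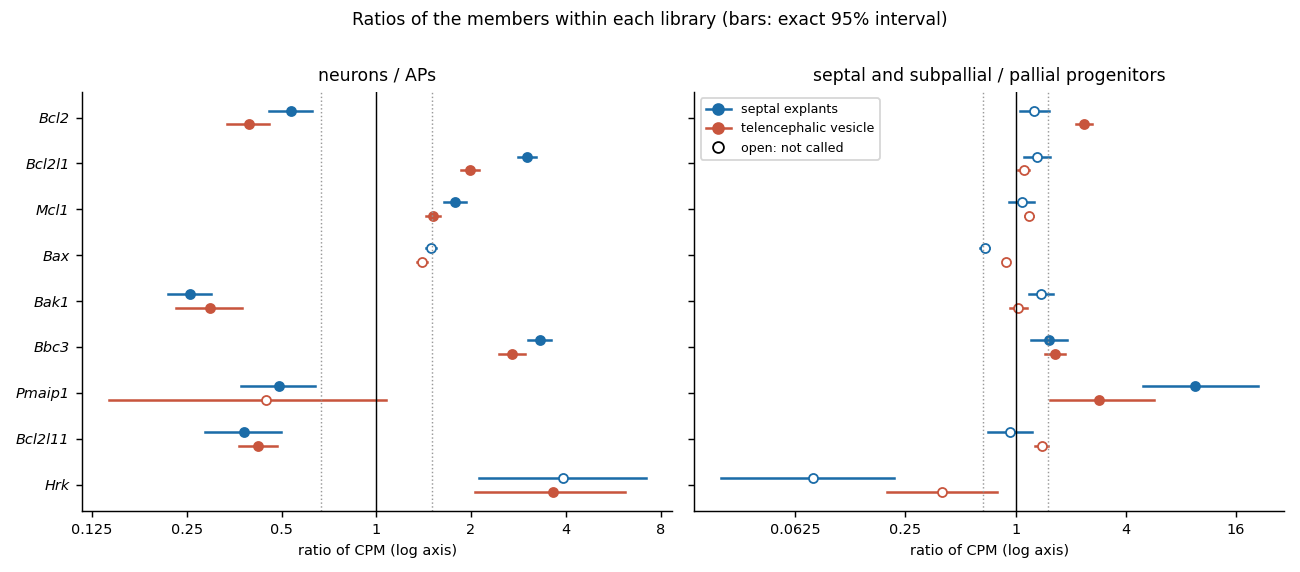
Ratios of CPM (x axis, log scale) of neurons over APs (left) and of septal-like and subpallial-like over pallial-like APs (right), in both libraries, with exact 95% intervals. Filled points are called, dotted lines mark 1.5-fold either way, and *Bcl2*, *Bak1* and *Bcl2l11* lie to the left and *Bcl2l1*, *Mcl1* and *Bbc3* to the right in the left panel in both libraries.

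Among progenitors, regions differed in some members. This comparison of septal-like and subpallial-like with pallial-like APs was added after class values had been seen. *Bcl2* in the telencephalic vesicle was at 42.9 CPM in the septal-like and subpallial-like cells and 18.2 CPM in the pallial-like cells, a ratio of 2.36 (2.14 to 2.60) that was called in all 10 alternative settings. The septal explants gave a ratio of 1.26 (1.05 to 1.52), which was not called, although 6 of 10 alternative settings called it, with ratios up to 1.95. *Bbc3* was called higher in both libraries, at 1.51 (1.21 to 1.90) and 1.64 (1.44 to 1.86). The calls were lost in 2 and 5 of 10 alternative settings, down to 1.44 and 1.29, and both depended on single clusters. The septal explants call was lost without any of 3 of the 7 septal-like and subpallial-like clusters, down to 1.45 (1.17 to 1.83). The pallial-like cells there were 1 cluster of 300 cells, which could not be left out. APs without a regional name were on neither side, although their cluster led by *Lrrn1* and *Wnt8b* held 6 pallial markers, as many as the pallial-like cluster. The telencephalic vesicle ratio became 1.16 (0.964 to 1.41) without the deeper of the 2 pallial-like clusters, whose cells had a median of 23515 UMIs. *Pmaip1* was called higher too, at 9.53 (4.98 to 21.0) and 2.85 (1.55 to 5.72), and became 1.98 (0.997 to 4.48) and 1.06 (0.521 to 2.29) without the *Fgf8*-led or *Fgf17*-led cluster. No member was called lower over all kept cells, and *Bax* was below 1 in both libraries, at 0.679 (0.642 to 0.719) and 0.887 (0.859 to 0.917). Since pallial-like APs of the septal explants held few cells with *eYFP*, the ratios were also taken apart by that reporter. *Bbc3* was at 1.55 (1.02 to 2.47) in cells with an *eYFP* UMI and 1.56 (1.18 to 2.09) in cells without, and *Pmaip1* at 11.2 (3.07 to 92.8) and 9.53 (4.50 to 24.1), each called. *Bcl2*, at 1.503 (1.05 to 2.23), *Bak1*, at 1.52 (1.14 to 2.07), and *Bax*, called lower at 0.635 (0.576 to 0.703), passed the threshold in cells with *eYFP* alone, on 72 pallial-like cells. *Bcl2l11* was not called over all kept cells, but reached 1.59 (1.37 to 1.85) in the telencephalic vesicle without that deeper pallial-like cluster. This made 2 members higher of 8 tested in the septal explants and 3 of 8 in the telencephalic vesicle, where 13% and 12.6% of all genes were called higher and 6.23% and 4.77% lower. The median log2 ratio of the members was 0.36 and 0.36, beside 0.039 and 0.05 over all genes. Genes known to be switched on by dissociation moved with the region, and in opposite directions in the 2 libraries. Of the dissociation list, 4 of 7 tested (*Fos*, *Fosb*, *Egr1*, *Atf3*) were lower in the septal-like and subpallial-like cells of the septal explants and 7 of 10 higher in those of the telencephalic vesicle, with a summed level of 542 CPM in pallial-like, 427 in septal-like and 312 in subpallial-like cells of the former and 93.6, 136 and 167 CPM in the latter, and list medians of -0.92 and 1.07. Their part in the member ratios was not tested.

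Between neuron classes, CR-like cells were set against all other neurons. *Bbc3* was higher in CR-like cells of both libraries, at 137 against 61.1 CPM in the septal explants, a ratio of 2.24 (1.96 to 2.56), and at 62.1 against 37.7 CPM in the telencephalic vesicle, a ratio of 1.65 (1.38 to 1.96). *Bcl2l11* was higher as well, at 4.77 (2.75 to 8.30) on 31 and 27 UMIs and 1.79 (1.33 to 2.39) on 79 and 128 UMIs. *Bcl2* was lower in the septal explants, at 0.418 (0.238 to 0.689) on 17 and 169 UMIs, but stood at 1.03 (0.724 to 1.45) in the telencephalic vesicle. *Bcl2l1*, *Mcl1* and *Bax* differed little, with ratios of 1.15 (1.02 to 1.30), 0.911 (0.763 to 1.08) and 1.05 (0.974 to 1.13) in the septal explants and 1.22 (1.07 to 1.399), 0.9697 (0.869 to 1.08) and 0.948 (0.874 to 1.03) in the telencephalic vesicle, and intervals that left out 1.5-fold in either direction. That made 2 members higher and 1 lower of 8 tested in the septal explants, where 10.6% of all genes were called higher and 6.88% lower. In the telencephalic vesicle 2 were higher and 0 lower of 7 tested, against 10.1% and 4.75% of all genes. The median log2 ratio of the members was 0.36 and 0.29, beside -0.011 and 0.02. Of the 10 alternative settings, the *Bbc3* call held in 10 for the septal explants but 7 for the telencephalic vesicle, where a clustering of all deposited barcodes gave 0.731, and the *Bcl2l11* call held in 6 and 9, with ratios down to 1.16 and 1.45. The *Bcl2* call of the septal explants held in 8, with ratios up to 0.811, and was lost without 1 of the 7 clusters. By reporter, *Bbc3* was at 2.02 (1.72 to 2.36) in septal explants cells with an *eYFP* UMI and 3.07 (2.35 to 3.98) in those without, both called, while *Bcl2* was called lower in the former alone, at 0.364 (0.170 to 0.699) against 0.615 (0.238 to 1.34).

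**Figure D4:**
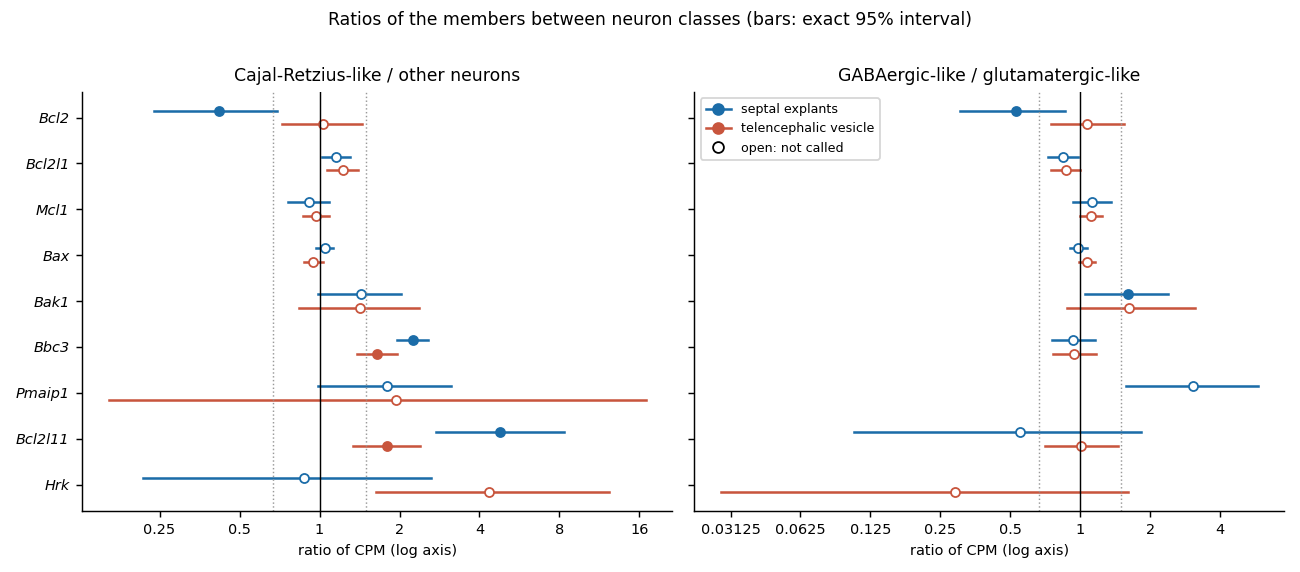
Ratios of CPM (x axis, log scale) between neuron classes, CR-like over other neurons (left) and GABAergic-like over glutamatergic-like neurons (right), with exact 95% intervals and filled points where called. *Bbc3* and *Bcl2l11* lie right of the 1.5-fold line for CR-like cells in both libraries, while the guardians *Bcl2l1* and *Mcl1* and the effector *Bax* lie close to 1.

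CR-like cells fell into 2 clusters in each library, and the members divided between them. The class as a whole held 246 and 154 CPM of *Trp73*, a marker used in its naming, against 2.84 and 0.720 CPM in other neurons. Each cluster held 7 or 8 of the 9 CR markers. The 1st cluster, with 51 septal explants cells and 118 telencephalic vesicle cells, was led by *Ccno*, *Mcidas*, *Foxj1* and *Gmnc*, genes known from the programme of multiciliated cells. It also held 7 or 8 of the 8 BP markers and a lower median on the axis from progenitor to neuron described further on, 2.61 and 2.29. The other, with 159 and 291 cells, was led by *Lhx1* and *Samd3*, among others, held 0 or 1 of the BP markers and stood at 3.25 and 4.02. *Bbc3* was low in the *Ccno*-led and high in the *Lhx1*-led cluster, at 36.8 CPM (23.0 to 55.7) and 169 CPM (151 to 189) in the septal explants and 41.4 CPM (29.3 to 56.8) and 69.9 CPM (59.8 to 81.2) in the telencephalic vesicle. *Bcl2l11* was the reverse, at 30.1 CPM (17.8 to 47.5) and 6.98 CPM (3.72 to 11.9) in the septal explants and 39.2 CPM (27.5 to 54.3) and 17.7 CPM (12.8 to 23.8) in the telencephalic vesicle. None of these 4 pairs of intervals overlapped. Thus the 2 BH3-only genes called in CR-like cells were highest in different CR-like clusters. *Bax* followed *Bbc3*, at 261 CPM (221 to 305) and 418 CPM (389 to 448) in the septal explants and 189.6 CPM (162 to 220.0) and 262 CPM (242 to 283) in the telencephalic vesicle. *Bcl2l1* stood at 175 CPM (144 to 212) and 133 CPM (117 to 151), and at 101 CPM (81.8 to 124) and 91.3 CPM (79.7 to 104), with intervals that overlapped in both libraries. *Hrk* was found at 3 and 1 UMIs in the septal explants and 7 and 5 in the telencephalic vesicle. The ratio of CR-like cells to other neurons thus rested on 1 cluster for *Bbc3* in both libraries and for *Bcl2l11* in the telencephalic vesicle. In the septal explants the *Bcl2l11* ratio fell without the *Ccno*-led cluster but stayed above 1.5-fold. Without the *Lhx1*-led cluster *Bbc3* was at 0.602 (0.375 to 0.920) in the septal explants, below other neurons, and at 1.10 (0.766 to 1.54) in the telencephalic vesicle. Without the *Ccno*-led cluster *Bcl2l11* was at 2.64 (1.25 to 5.30) in the septal explants, on too few UMIs for a call, and at 1.34 (0.927 to 1.91) in the telencephalic vesicle. *Bak1*, at 1.43 (0.990 to 2.03) over all CR-like cells of the septal explants, reached 2.13 (1.18 to 3.60) without the *Lhx1*-led cluster. Depth was alike in the clusters, with medians of 11595 and 11341 UMIs in the septal explants and 6899 and 7016 in the telencephalic vesicle.

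GABAergic-like and glutamatergic-like neurons differed in 2 of 6 tested members in the septal explants and 0 of 6 in the telencephalic vesicle. In the septal explants *Bcl2* was lower in GABAergic-like cells, at 0.527 (0.304 to 0.861), and *Bak1* higher, at 1.60 (1.05 to 2.39). The *Bcl2* call was lost without the *Pcp4*-led pallial cluster, at 0.651 (0.371 to 1.08), and the *Bak1* call too, at 1.52 (0.992 to 2.30). In cells with an *eYFP* UMI *Bcl2* was not called, at 0.658 (0.345 to 1.16), and in cells without one *Bak1* had too few UMIs for a call. *Pmaip1* had 18 UMIs in 13 GABAergic-like cells and 26 in glutamatergic-like cells, too few together for a call. Of the telencephalic vesicle members, *Bcl2l1* stood at 0.865 (0.748 to 1.002), *Mcl1* at 1.12 (0.9999 to 1.25), *Bax* at 1.07 (0.983 to 1.15) and *Bbc3* at 0.945 (0.765 to 1.17). Of all genes, 4.97% were called higher and 10% lower in the septal explants and 9.81% and 7.15% in the telencephalic vesicle. The median log2 ratio of the members was -0.06 and 0.05, beside 0.0023 and 0.076.

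The family acts within a longer chain, and the other genes of that chain are given by lists. Like the members, these genes were left out of the clustering. *Cdkn1a* and *Trp73* were still among the leading genes of CR-like clusters, and *Trp73* was also a marker used to name those clusters. The ratios of the list genes describe the classes only, and the shares of all genes called in each comparison are those given above with the members. Of 13 other Bcl2 family genes, 3 of 9 tested were higher and 1 lower in neurons of the septal explants, and 2 of 9 were higher and 4 lower in those of the telencephalic vesicle. Called alike in both libraries were *Bad*, a BH3-only gene, at 1.55 (1.45 to 1.66) and 1.75 (1.62 to 1.89), and *Bcl2l2*, the guardian Bcl-w, at 2.14 (1.70 to 2.69) and 1.97 (1.58 to 2.44). The BH3-only gene *Bik* was lower at 0.372 (0.174 to 0.710) and 0.370 (0.158 to 0.742) on few UMIs. The median log2 ratio of this list was 0.11 and -0.20. Of 12 apoptosome and caspase genes, all tested, 1 was higher and 1 lower in the septal explants and 0 were higher and 2 lower in the telencephalic vesicle, with medians of 0.01 and -0.11. *Casp8*, the initiator caspase of death receptors, was lower in neurons of both, at 0.0414 (0.0112 to 0.107) and 0.166 (0.0854 to 0.292).

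In CR-like cells, *Apaf1*, the scaffold of the apoptosome, was at 17.1 CPM against 6.16 CPM in other neurons of the septal explants, a ratio of 2.77 (1.83 to 4.16). *Casp6*, an effector caspase, was at 76.0 and 38.3 CPM there, a ratio of 1.99 (1.66 to 2.37). Neither was called in the telencephalic vesicle, where their ratios were 1.13 (0.878 to 1.44) and 1.25 (0.974 to 1.60). Of the other Bcl2 family genes, 0 of 7 and 0 of 8 tested were called. Of all genes, 10.6% were called higher and 6.88% lower in the septal explants and 10.1% and 4.75% in the telencephalic vesicle. The list medians were 0.36 and 0.20 for caspases and 0.05 and -0.02 for the other Bcl2 family genes.

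The p53 list, whose members are known p53 targets besides *Trp53* itself, was high in CR-like cells. Summed over its 12 genes, it stood at 2990 CPM in CR-like cells of the septal explants and 360.4 to 390.3 CPM in the other neuron classes, and at 745 CPM against 251 to 266 CPM in the telencephalic vesicle. Against other neurons, 9 of 10 tested were higher in the septal explants and 4 of 9 in the telencephalic vesicle, 0 were lower, and the medians were 2.06 and 0.68. *Cdkn1a*, the cell cycle inhibitor p21, was its largest part, at 1982 and 333 CPM in CR-like cells and 31.9 and 8.65 CPM in other neurons, ratios of 62.1 (55.5 to 69.7) and 38.6 (30.9 to 48.7). *Phlda3*, which restrains Akt, was higher at 38.4 (28.9 to 51.8) and 12.3 (8.74 to 17.6), *Ccng1* at 6.77 (5.82 to 7.90) and 3.38 (2.66 to 4.29), and the nuclease gene *Aen* at 3.36 (2.87 to 3.92) and 1.78 (1.4 to 2.25). Between the CR-like clusters the p53 list had close sums in the septal explants, and a higher sum in the *Ccno*-led cluster of the telencephalic vesicle. Its sum was 2824 CPM (2691 to 2962) in the *Ccno*-led and 3043 CPM (2965 to 3124) in the *Lhx1*-led cluster of the septal explants, where *Phlda3* was at 91.9 CPM (69.2 to 119.6) and 238 CPM (217 to 262). In the telencephalic vesicle the sum was 1217 CPM (1147 to 1291) and 567 CPM (537 to 598), with *Cdkn1a* at 696 CPM (643 to 753) and 197 CPM (179 to 215). Dissociation genes were no higher in CR-like cells as a list, with 1 of 5 tested higher in the septal explants and 0 of 5 in the telencephalic vesicle, and summed levels of 521 and 415 CPM, inside the 493 to 560.2 and 409 to 499 CPM of the other neuron classes. Of the integrated stress response list, 0 of 3 tested were higher and 1 (*Asns*) lower in the septal explants, and 0 of 3 were called in the telencephalic vesicle.

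Over all neurons against APs, 6 of 10 tested p53 genes were higher in each library and 1 and 2 lower, with medians of 1.29 and 0.70. Neurons here include CR-like cells, and outside them the sum of the list was no higher in neuron classes, at 360.4 to 390.3 CPM beside 385 to 478 CPM in AP classes of the septal explants and 251 to 266 beside 248 to 271 CPM in the telencephalic vesicle. *Trp53inp1* was at 7.75 (6.57 to 9.16) and 7.52 (6.80 to 8.31), *Mdm2* at 2.36 (2.20 to 2.52) and 1.58 (1.477 to 1.70), and *Trp53* itself was lower in neurons at 0.638 (0.606 to 0.671) and 0.584 (0.545 to 0.625). Of the 8 upstream regulators, 5, *Trp73* included, were higher in both libraries, and 2 and 3 lower, with medians of 0.87 and 0.68. The kinase genes known to act on Jun were among them, with *Mapk10* at 7.47 (6.54 to 8.55) and 7.65 (7.31 to 8.00), *Mapk8* at 4.03 (3.73 to 4.36) and 1.82 (1.71 to 1.93) and *Mapk9* at 2.02 (1.75 to 2.33) and 1.63 (1.46 to 1.81). *Jun* was lower in neurons, at 0.384 (0.356 to 0.414) and 0.614 (0.580 to 0.650), and so was *E2f1*, at 0.321 (0.277 to 0.369) and 0.325 (0.282 to 0.372). *Foxo3* was higher in neurons, at 1.64 (1.30 to 2.06) and 1.57 (1.38 to 1.79), and *Foxo1* was higher in CR-like cells than in other neurons, at 7.51 (4.55 to 12.6) and 1.98 (1.32 to 2.93), and in septal-like and subpallial-like than in pallial-like APs, at 2.08 (1.37 to 3.30) and 2.12 (1.84 to 2.46). In the CR-like comparison 3 of the 8 upstream regulators were higher and 1 lower in the septal explants and 2 higher and 0 lower in the telencephalic vesicle, *Trp73* again included, with list medians of 0.38 and 0.28. Stress lists were followed over the stage as well. Of the dissociation list, 3 of 9 tested were higher and 2 lower in neurons of the septal explants and 5 of 10 higher and 2 lower in those of the telencephalic vesicle, where 28.1% and 24.7% of all genes were called higher and 24.4% and 27.9% lower, with *Junb* at 12.3 (10.6 to 14.4) and 24.7 (21.7 to 28.2) and *Dusp1* at 2.55 (2.41 to 2.70) and 3.79 (3.56 to 4.03), and list medians of 0.14 and 0.50. Of the integrated stress response list, 2 of 4 tested were higher in both and 1 was lower in the telencephalic vesicle, and *Ddit3*, which encodes Chop, was at 3.15 (2.87 to 3.45) and 3.02 (2.76 to 3.31), with list medians of 1.01 and 1.05. Median mitochondrial shares were 2.20% to 2.51% in neuron classes and 1.94% to 2.44% in AP classes of the septal explants and 2.93% to 3.09% and 2.35% to 2.80% in those of the telencephalic vesicle. Their part in the member ratios was not tested.

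The same lists were followed in the remaining comparisons. Between GABAergic-like and glutamatergic-like neurons, 0 of 7 and 0 of 6 other Bcl2 family genes, 0 of 10 and 0 of 10 caspase genes and 0 of 5 and 0 of 5 dissociation genes were called in the septal explants and the telencephalic vesicle. *Cdkn1a* was lower in GABAergic-like cells of both, at 0.601 (0.418 to 0.841) and 0.236 (0.132 to 0.402), as the only p53 gene called lower of 9 and 7 tested, and *Sesn2* was higher in the septal explants. Of the upstream regulators, 1 of 6 tested (*E2f1*) was lower in the septal explants and 2 of 7 (*Foxo1*, *Foxo3*) higher in the telencephalic vesicle, and *Asns* was the 1 stress response gene called of 3, lower in the septal explants. Between septal-like and subpallial-like and pallial-like APs, 1 of 8 other Bcl2 family genes (*Bok*) was lower in the septal explants and 0 of 9 were called in the telencephalic vesicle, and 1 of 12 caspase genes (*Casp8*) was higher in the septal explants and 0 of 12 in the telencephalic vesicle. The p53 target *Phlda3* was lower in the former and higher in the latter, where *Cdkn1a* and *Sesn2* were higher as well, and *Jun* and *Ddit3* changed sides in the same way. *Mapk10* was higher in both, at 15.3 (5.17 to 74.5) and 3.86 (3.44 to 4.34). The medians of these lists lay between -0.31 and 0.29 on the log2 scale in the GABAergic-like comparison and, without the dissociation list described above, between -0.23 and 0.48 in the regional comparison.

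The turn from progenitor to neuron was also followed along a rank of neural cells, cut into 10 bins of equal size. The rank was by the log2 ratio of their UMIs of 11 neuronal genes to their UMIs of 9 AP genes, each raised by 1. The 9 AP genes were also the AP markers, and the same ratio had a part in naming the classes. The bins are therefore not independent of the class names. Bins 1 to 6 held 94.5% to 100% APs in the septal explants, and bins 9 and 10 held mostly neurons. Through those early bins *Bcl2l1* was flat, at 40.3 CPM in bin 1 and 44.8 CPM in bin 6, then stood at 53.2, 90.6, 126 and 133 CPM in bins 7 to 10. *Bak1* was at 47.3, 19.1, 12.9 and 11.95 CPM over the same bins. *Bbc3* was at 16.2 CPM (13.6 to 19.2) in bin 1 and 27.4 CPM (23.9 to 31.4) in bin 6, so it was not flat over the early bins. Its larger change came later, with 24.2 and 29.7 CPM in bins 7 and 8 and 65.5 and 74.1 CPM in bins 9 and 10. Bin 8, where BP-like cells were 46.7% of cells, thus already had more *Bcl2l1* and less *Bak1* than any earlier bin, while its *Bbc3* interval, 29.7 CPM (25.5 to 34.5), overlapped that of bin 6, 27.4 CPM (23.9 to 31.4). The order over bins 7 to 10 was alike in the telencephalic vesicle, where *Bbc3* was at 18.3 CPM in bin 1 and 15.6 CPM in bin 6. *Bcl2l1* was at 45.5, 57.1, 74.0 and 83.9 CPM, *Bak1* at 17.6, 11.3, 4.52 and 5.18 CPM and *Bbc3* at 15.4, 15.7, 40.0 and 45.0 CPM in bins 7 to 10. *Bcl2l11* held on for longer there, at 41.1 and 41.0 CPM in bins 7 and 8, and was at 22.6 and 11.9 CPM in the last bins. *Mcl1* was highest in bin 9 of the telencephalic vesicle, at 144 CPM (135 to 153), and in bin 10 of the septal explants, at 73.4 CPM (67.0 to 80.2). *Bcl2* was lowest in bin 8 of the septal explants, at 12.1 CPM (9.48 to 15.3), and bin 9 of the telencephalic vesicle, at 12.55 CPM (10.0 to 15.5).

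**Figure D5:**
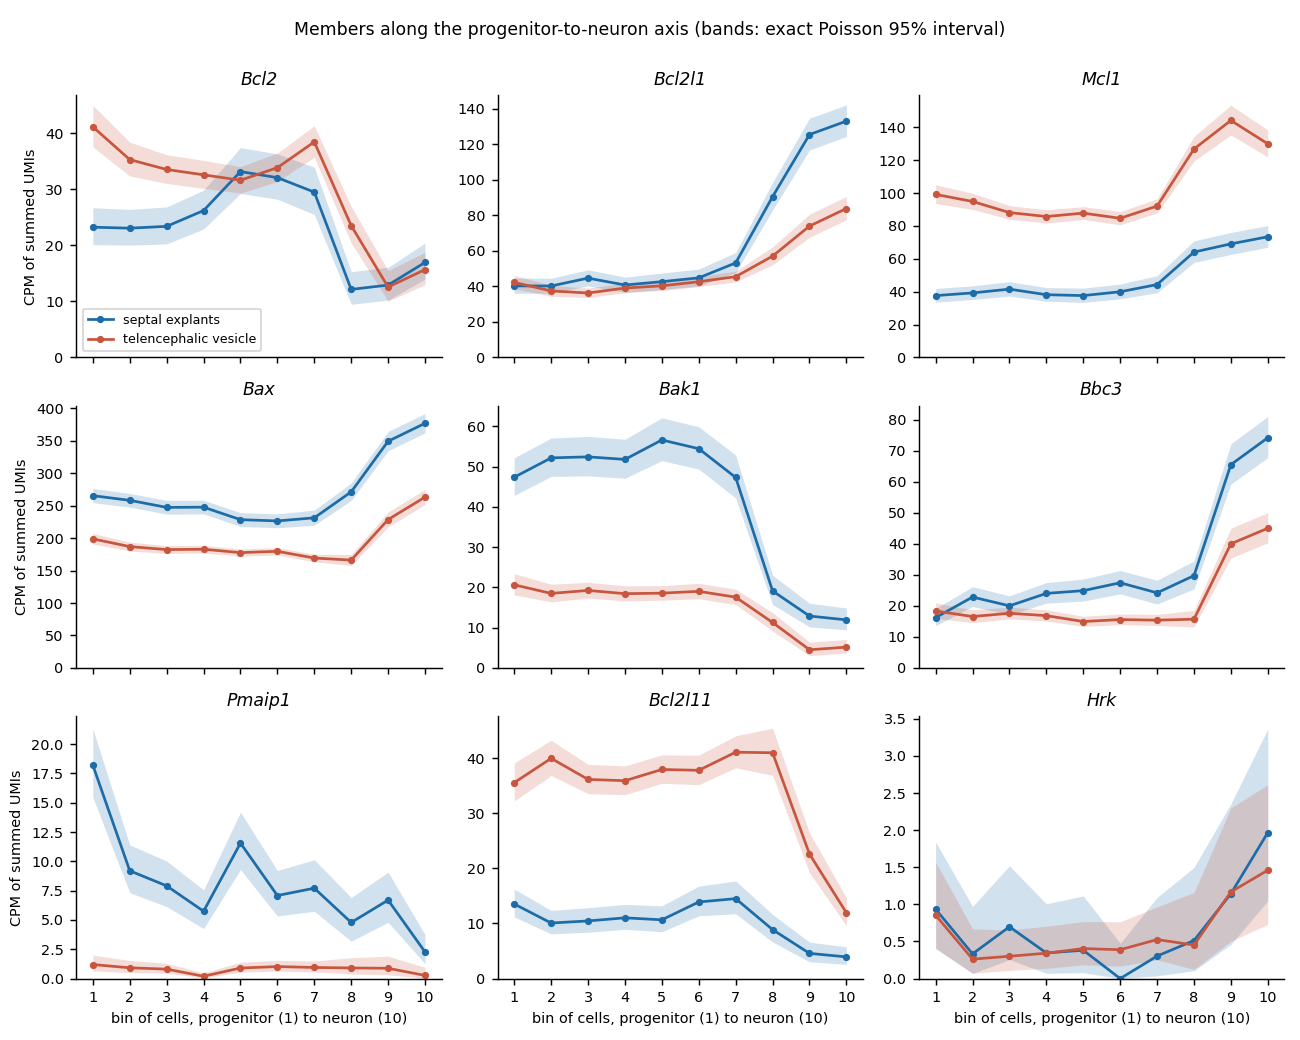
CPM of the 9 genes (y axis, linear) in 10 bins of neural cells from the progenitor end (1) to the neuron end (10) of the axis, for the septal explants (blue) and the telencephalic vesicle (red), with exact Poisson 95% bands; heights are not comparable between libraries. *Bak1* is lower and *Bcl2l1* higher in bin 8 than in bin 7, and *Bbc3* is higher in bin 9 than in bin 8.

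Across clusters the members sorted in the same way. Pearson's r of log2(CPM + 1) over 27 septal explants and 22 telencephalic vesicle neural clusters is given as a description, since the clusters of a library share its depth and its embryos. *Bcl2l1* and *Mcl1* ran together, at 0.87 and 0.81, and *Bcl2l1* ran against *Bak1*, at -0.82 and -0.81. *Bak1* and *Bcl2l11* ran together at 0.65 and 0.65, and the BH3-only pair with the closest core, *Bbc3* and *Bcl2l11*, had r of -0.23 and -0.57. The genes most like each member, taken as the 3 with the highest lower r of both libraries among 10771 genes, were *Lman1*, *Calu* and *Caprin2* for *Bcl2* (lower r of 0.76 to 0.78), *Afap1*, *Morn4* and *Stk36* for *Bcl2l1* (0.92 to 0.93), and *Wsb1*, *Rb1cc1* and *Tbce* for *Mcl1* (0.90 to 0.91). For the effectors they were *Tbcb*, *Pafah1b3* and *Ric8* for *Bax* (0.83 to 0.86) and *Ajuba*, *Hells* and *Yap1* for *Bak1* (0.92 to 0.93). For the BH3-only genes they were *Vps9d1*, *Ccdc184* and *Tmem200a* for *Bbc3* (0.81 to 0.84), *Cldn3*, *Fgf8* and *Plekha1* for *Pmaip1* (0.71 to 0.82), and *Pbxip1*, *Cnksr3* and *Ildr2* for *Bcl2l11* (0.83 to 0.85). *Hrk* had too few UMIs to be compared.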

How the data were processed

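Cells of both libraries were dissociated with the Neural Tissue Dissociation Kit and run on the 10x Chromium system, with the v2 kit and about 10000 input cells for the septal explants and the v3.1 kit and about 20000 for the telencephalic vesicle. The deposited files hold raw UMI counts per gene and barcode, which the authors made with Cell Ranger 2.1.1 (septal explants, mm10 with added YFP and tdTomato sequences) and Cell Ranger 7.1.0 (telencephalic vesicle, mm10), and whether intronic reads were counted in the latter is not given in the sources used here. That bears on genes with long introns such as *Bcl2*, whose longest intron spans 168906 bases. The deposited barcodes had medians of 12722 and 8503 UMIs, with lowest values of 3902 and 500.

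The count tables were read with Python 3.11.15, NumPy 2.4.6, SciPy 1.17.1 and scanpy 1.11.5. Barcodes beyond 3 median absolute deviations of the median mitochondrial share were removed, as in the study's methods. Doublets were scored with Scrublet as implemented in scanpy. Its automatic threshold marked 5 of 5444 barcodes of the septal explants, which is 0.0918%, so a fixed score of 0.25 was used in both libraries and removed 77 (1.41%) and 884 (7.09%). The libraries shared 1 barcode sequence. Counts were scaled to 10000 per cell and logged, and 2000 variable genes, 30 principal components, 15 neighbours and Leiden clustering (igraph 0.11.9) at a resolution of 1.5 were used. Left out of the variable genes were the 9 members, the genes of the pathway and stress lists, sex-linked, cell cycle and mitochondrially encoded genes, and the reporters. A marker counted for a cluster when it was found in at least 5% of its cells and 1.5-fold above the other clusters, and a name needed 3 markers. AP markers were set against the clusters on the neuron side of the axis used for the bins. A neuron name also needed a cluster median on the neuron side of that axis, and an AP name a median on the other side. Markers among the leading genes of a cluster also decided between names. The rule that sets progenitors apart from neurons and picks a regional name was revised after the clusters had been seen.

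Each class was summed, and 2 classes were compared as a ratio of CPM with an exact conditional binomial 95% interval, with genes of at least 50 UMIs tested. "Neurons" are all cells of neuron-like classes, and "APs" all cells of AP-like classes with or without a regional name, hem-like included. Intervals and limits cover counting error only. The ratio and its call were tested on simulated data with known folds. Those counts were Poisson draws, as the interval assumes, without spread between cells or embryos, so they check the computation only. Besides the members, genes of 6 pathway and stress lists were named where called in both libraries, except for an item that is not reported here, and any others named by a list count of 3 or fewer or as leading genes were chosen after their values were seen. For each member with at least 200 UMIs in both libraries, the 3 genes most like it were named. Gene models, coordinates and sequences came from GENCODE vM21 (GRCm38). The members and lists were chosen with earlier results of these data known, and the comparison of septal-like and subpallial-like with pallial-like APs was added after values had been seen, as were leaving out each cluster in turn and the split of the septal explants by *eYFP*.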

Additional observations from a re-analysis of the deposited data

How the results depend on the processing

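No paired analysis was possible because each condition has 1 library of pooled embryos. Of the ratios recomputed under 10 alternative settings, 495 moved by less than their counting error, 103 moved by more and 1 that was called passed to the other side of 1: *Bbc3* in CR-like cells against other neurons of the telencephalic vesicle, 0.731 with all deposited barcodes. Ratios that were not called could cross 1 too, such as *Pmaip1* in CR-like cells of the septal explants, from 1.79 down to 0.547. Of the counts of members called, 80 stayed within 1.5 times and 8 did not. In CR-like cells of the septal explants 3 members became 1 at a Leiden resolution of 2.5, and in CR-like cells of the telencephalic vesicle 2 became 1 with doublets kept and 0 with at least 1000 genes per cell. Between GABAergic-like and glutamatergic-like neurons of the septal explants 2 became 1 in thinned cells and 4 with a count minimum of 10, and in the telencephalic vesicle 0 became 1 with at least 1000 genes per cell. Between septal-like and subpallial-like and pallial-like APs of the septal explants 2 became 4 with all deposited barcodes and 1 with doublets kept. A count minimum of 10 tests more genes by construction. The cause of the other changes was not tested. The counts for neurons against APs stayed within 1.5 times in every setting run in both libraries. All 36 shares of cells with a UMI fell when 2 UMIs were asked for or cells were thinned, and the bin of the highest level changed for *Bcl2* in the septal explants alone. Depth limits *Hrk* and *Pmaip1* most, with 81 and 395 UMIs in the kept cells of the telencephalic vesicle.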

Other observations

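Barcodes left out for a high mitochondrial share were set beside kept cells. In the septal explants, 205 such barcodes with a median of 7325 UMIs had 44.2 CPM (34.9 to 55.1) of *Pmaip1*, where kept cells had 8.32 CPM (7.69 to 8.99), and 36.8 CPM (28.4 to 46.9) of *Bbc3*, where kept cells had 30.7 CPM (29.5 to 32.0). A further 178 barcodes with a low share had 2.71 CPM (0.994 to 5.90) of *Pmaip1* and 8.13 CPM (4.82 to 12.8) of *Bbc3*. In the telencephalic vesicle, 1812 barcodes above the limit, at a median of 1353 UMIs, had 3.40 CPM (1.76 to 5.94) of *Pmaip1* and 14.5 CPM (10.8 to 19.0) of *Bbc3*, beside 2.33 CPM (2.105 to 2.57) and 17.98 CPM (17.3 to 18.6) in kept cells. *Bak1* was lower in such barcodes of both libraries, at 30.0 CPM (22.5 to 39.3) against 42.7 CPM (41.3 to 44.2) and 11.62 CPM (8.34 to 15.8) against 17.3 CPM (16.7 to 17.9), and *Bax* in the telencephalic vesicle, at 151 CPM (138 to 164) against 185 CPM (183 to 187). The *Pmaip1* intervals left each other out in the septal explants alone. These barcodes were not given a class, so which cells they came from is not known here.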
